A study of Mus musculus with 6 samples.

Results

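The granzymes Gzma, Gzmb, Gzmc, Gzmd, Gzme, Gzmf, Gzmg and Gzmk and the pore-forming protein perforin (Prf1) were followed by symbol, 9 of the 18848 genes in the deposited expression table, in CD8 T cells, CD4 T cells, regulatory T cells, natural killer (NK) cells and proliferating immune cells of mouse prostate tumours. Each gene was matched by 1 row. The tumours were grown from PPS-ICBR, a prostate cancer line described in the labels as resistant to immune checkpoint blockade (ICB), in C57Bl6 mice. There were 3 tumours in each of 4 groups. The BD+ICB mice ate a mash of 198 g chow and 2 g saccharine made up with 80 mL 1,3-butanediol in 120 mL water, and received antibodies against PD-1 and CTLA-4 at a listed 0.2 mg. The ICB mice received these antibodies on standard chow, and the deposited cell table names them SD+ICB. The BD mice ate the butanediol chow and the SD mice standard chow, both without antibodies. Butanediol is turned into the ketone body β-hydroxybutyrate, and the series asks whether a ketone-raising diet alters resistance to blockade. All groups share the cell line, the strain and a Percoll step that kept the leukocyte layer, so cells lost there are not seen. The ages and sex of the mice were not given in the labels used here.

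All tumours were marked by hashtag antibodies and pooled into 2 droplet libraries, BD with SD and BD+ICB with ICB, so each diet comparison lies within a library, whereas blockade and library cannot be told apart. Diet also goes with the hashtag, since hashtags 6 to 8 marked butanediol tumours and 3 to 5 standard chow tumours. The listed tumour sizes, given without a unit, were 48, 23 and 90 for BD+ICB, 1116, 995 and 289 for ICB, 178, 203 and 172 for BD, and 2348, 1216 and 870 for SD. Diet and tumour size cannot be told apart. The 5 classes, as named by the authors, held 1064 of 5749 cells (18.5%), of which 479 were from BD+ICB tumours, 386 from ICB, 63 from BD and 136 from SD. Median depth in these cells was between 5190 and 18014 unique molecular identifiers (UMIs) per tumour. Of these cells, 5 had a barcode that also occurred in the other library. The labels name separate tumours but no mice, so the p-values measure the spread between these tumours, which could share a mouse.

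Cytotoxic lymphocytes store granzymes, which are serine proteases, together with perforin in secretory granules. On contact with a target cell the granules are released, perforin opens the target membrane, and the granzymes enter and cleave proteins inside. Granzyme B cleaves after aspartate and activates caspases, granzymes A and K cleave after basic residues, and Gzmc to Gzmg are mouse genes that lie beside Gzmb. In tumours their transcripts are widely read as a sign of the killing capacity of CD8 T cells and NK cells.

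The 9 genes lie at 3 places of the mouse genome (RefSeq, GRCm38.p6). Gzmb (chr14:56258836-56262334), Gzmc, Gzmf, Gzmg, Gzmd and Gzme (chr14:56117619-56120625) form 1 cluster, Gzma (chr13:113093824-113100981) and Gzmk (chr13:113171630-113180965) form another, and Prf1 is at chr10:61297751-61304684. The sequences around the annotated start sites of 4 cluster members are given because Gzmb carried the main difference below, Gzmf was the member with the most UMIs in CD8 T cells, and Gzmd and Gzme show how alike the neighbouring copies are. Each runs from 250 bases before to 50 bases after the start, 5′ to 3′ on the minus strand of the gene, and capitals mark TGTGGT or its reverse complement ACCACA, the core letters read by RUNX factors.
Gzmb (chr14:56262285-56262584): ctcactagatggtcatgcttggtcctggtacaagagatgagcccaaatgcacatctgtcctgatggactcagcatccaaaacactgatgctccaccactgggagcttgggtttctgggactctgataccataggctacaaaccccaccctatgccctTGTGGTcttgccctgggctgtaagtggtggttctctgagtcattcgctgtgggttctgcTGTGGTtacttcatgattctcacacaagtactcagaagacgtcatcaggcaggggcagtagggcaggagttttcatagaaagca
Gzmf (chr14:56211358-56211657): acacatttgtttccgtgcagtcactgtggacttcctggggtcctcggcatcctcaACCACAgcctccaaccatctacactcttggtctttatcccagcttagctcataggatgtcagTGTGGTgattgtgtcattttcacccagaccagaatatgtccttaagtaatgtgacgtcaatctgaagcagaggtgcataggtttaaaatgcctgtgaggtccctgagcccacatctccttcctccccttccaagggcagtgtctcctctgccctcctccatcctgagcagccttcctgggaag
Gzmd (chr14:56132544-56132843): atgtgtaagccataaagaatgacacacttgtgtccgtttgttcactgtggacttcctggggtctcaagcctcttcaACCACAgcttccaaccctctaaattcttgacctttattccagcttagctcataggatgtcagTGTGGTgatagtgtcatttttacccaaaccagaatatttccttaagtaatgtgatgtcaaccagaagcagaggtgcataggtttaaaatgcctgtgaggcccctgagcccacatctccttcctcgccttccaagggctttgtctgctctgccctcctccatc
Gzme (chr14:56120576-56120875): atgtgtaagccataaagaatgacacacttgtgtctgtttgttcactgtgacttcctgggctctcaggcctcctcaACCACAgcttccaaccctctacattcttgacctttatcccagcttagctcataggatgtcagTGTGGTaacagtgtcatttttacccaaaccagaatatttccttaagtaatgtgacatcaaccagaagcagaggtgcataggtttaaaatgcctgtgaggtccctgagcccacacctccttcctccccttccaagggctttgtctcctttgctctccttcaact
The Gzmd and Gzme windows were identical in 281 of 301 aligned columns (93.4%) and those of Gzmf and Gzmg in 84.8%. The Gzmb window shared 51.7% with that of Gzmf and 50.6% with that of the unlinked Prf1. The Gzmc window (chr14:56234608-56234907) is left out of these values, since it lies wholly inside the span listed for the gene (chr14:56231397-56241647). The start sites used for Gzmd and Prf1 also lie inside the listed spans, but their windows cross the listed gene boundary. Transcripts and 3′ ends were not compared here, so whether the counting split reads between these neighbouring copies was not tested, and values of single genes among Gzmc, Gzmd, Gzme, Gzmf and Gzmg are taken as uncertain. Each of the windows of Gzmb, Gzmd, Gzme, Gzmf and Gzmg held 2 matches to TGTGGT on either strand, those of Gzma and Prf1 held 1, and that of Gzmk held none. Among all 32851 RefSeq promoter windows, 16.8% held at least 1 match and 1.81% held 2 or more. The Gzmb window also held 1 match each to TGANTCA (7.81% of windows) and TTCNNNGAA (8.30%). AGGTGT (13.7% of windows) and TGGAAA (21.4%) were searched as well, and the Gzmb window held 0 matches to either. The Gzmk window held 2 matches to AGGTGT, where 1.54% of windows held 2 or more. Those of Gzma, Gzme and Prf1 held 1 match to AGGTGT, and that of Gzma held 1 to TGGAAA. The windows of Gzmd, Gzme, Gzmf and Gzmg are alike and not independent, and a match is a description of letters and not of binding.

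Class levels of the members are given here as UMIs per 1000000 UMIs of the class (CPM) over all tumours pooled. These are 3′ tag counts, so levels are not corrected for gene length and are compared between classes for 1 gene, not between genes. Gzma was at 4320 CPM in NK cells, 568 in CD8 T cells, 148 in CD4 T cells, 26.4 in proliferating immune cells and 0 in regulatory T cells. Gzmb was at 1381 CPM in regulatory T cells, 968 in CD8 T cells, 793 in NK cells, 174 in proliferating immune cells and 160.3 in CD4 T cells. Tumours contribute unequally to each class, so these orders hold for the pooled sums; in BD tumour 1 Gzmb was at 2327 CPM in 10 regulatory T cells and 1723 CPM in 9 CD8 T cells, and in ICB tumour 1 at 1032.5 CPM in 8 and 759.9 CPM in 118. The 0 Gzma UMIs in 39 regulatory T cells allow a share of up to 7.69% of cells with a UMI. Prf1 was at 319 CPM in NK cells and 170.4 in CD8 T cells, and at most 29.1 in the other 3 classes. Gzmk, a granzyme of memory-like CD8 T cells, was at 45.7 CPM in CD8 T cells, 36.7 in CD4 T cells and 15.5 in NK cells. Gzmc was at 1112 CPM in NK cells and 458 in CD8 T cells. Gzmf was, by contrast, at 1205 CPM in CD8 T cells, 218 in proliferating immune cells and 104 in NK cells. Of the Gzmf UMIs, 1 cell held 95.0% in proliferating immune cells, 87.1% in NK cells and 29.1% in CD8 T cells. For Gzmc, 1 cell held 42.6% in CD8 T cells and 31.8% in NK cells. Gzmd, Gzme and Gzmg were less far apart, at 164, 119 and 7.92 CPM in CD8 T cells, against 158, 76.4 and 5.16 CPM in NK cells. The classes come from these same cells, and whether the members helped to define them is not given, so they were not tested against each other.

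**Figure D1:**
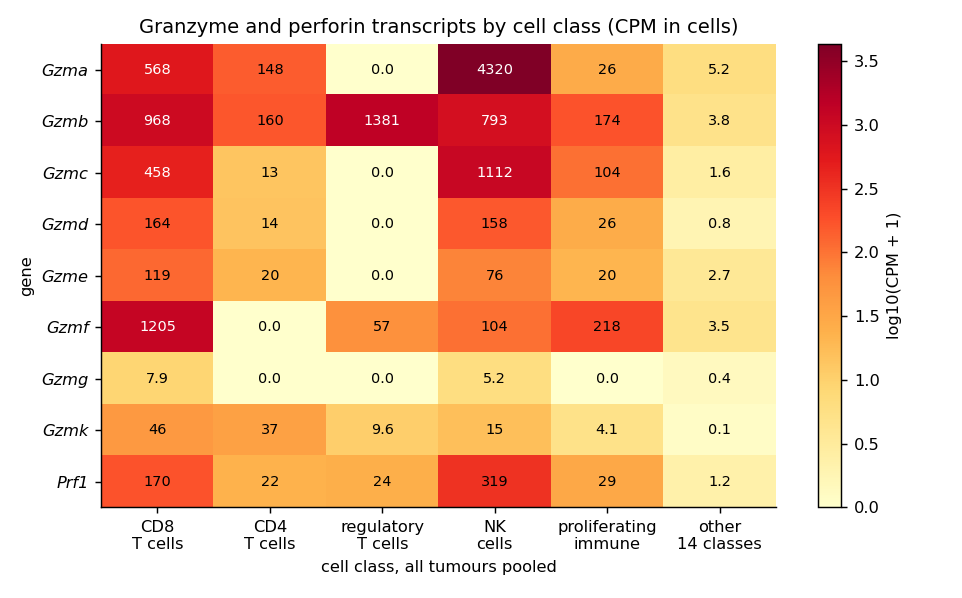
Level of each member (rows) in the 5 classes and in the other 14 classes of the table (columns), pooled over 12 tumours. Colours show log10(CPM + 1) and the printed numbers are CPM. Gzma peaks in NK cells at 4320, Gzmb is at 1381 in regulatory T cells and 968 in CD8 T cells, and the last column stays at or below 5.2.

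A UMI of Gzmb was found in 302 of 559 CD8 T cells, 54.0% (95% Wilson interval 49.9 to 58.1), in 80 of 132 NK cells, 60.6% (52.1 to 68.5), and in 31 of 39 regulatory T cells, 79.5% (64.5 to 89.2). The share in CD4 T cells was 21.3% (15.8 to 28.1) and that in proliferating immune cells 14.5% (9.97 to 20.7). In the other 14 classes the share lay between 0 and 7.14%, highest in proliferating cancer cells at a median depth of 108620 UMIs per cell and next in mesenchymal cells (5.39% at 21886 UMIs). The macrophage and neutrophil classes should lack the gene. Their share lay between 0.122% (1 of 817 Cxcr2+ neutrophils) and 2.94% (6 of 204 other macrophages), with 1.06% (8 of 757) in Trem2+ macrophages. Median depths of these 3 classes were 2393, 15366 and 7966 UMIs per cell, against 6263 in CD8 T cells and 3434 in regulatory T cells. With every cell thinned to 1000 UMIs the Gzmb share was 32.6% in CD8 T cells, 37.1% in NK cells, 60.5% in regulatory T cells and 0.304% in the other 14 classes. The thinned shares in the 3 leading classes were thus above the highest of any of the other 14 classes (0.798%). Intervals cover counting error only.

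The cluster genes were carried by few cells, and Gzmb and Prf1 by many. In CD8 T cells Gzmb had 3786 UMIs, of which the richest cell held 3.54%, and Prf1 had 667 UMIs in 214 cells with 4.05% in the richest. Gzmk had 179 UMIs in 101 cells, with a median of 1 UMI per positive cell. By contrast, 4717 UMIs of Gzmf lay in 59 cells, 29.1% of them in 1 cell and 56.3% in 5. Gzmc was the most concentrated of the genes with over 100 UMIs in CD8 T cells, with 92.3% of 1794 UMIs in 5 cells. For Gzma, 38.9% of 2223 UMIs in CD8 T cells came from 1 cell of a BD tumour. In NK cells, 88 of 132 cells held Gzma, with a median of 29.5 UMIs per positive cell and 8.70% in the richest.

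**Figure D2:**
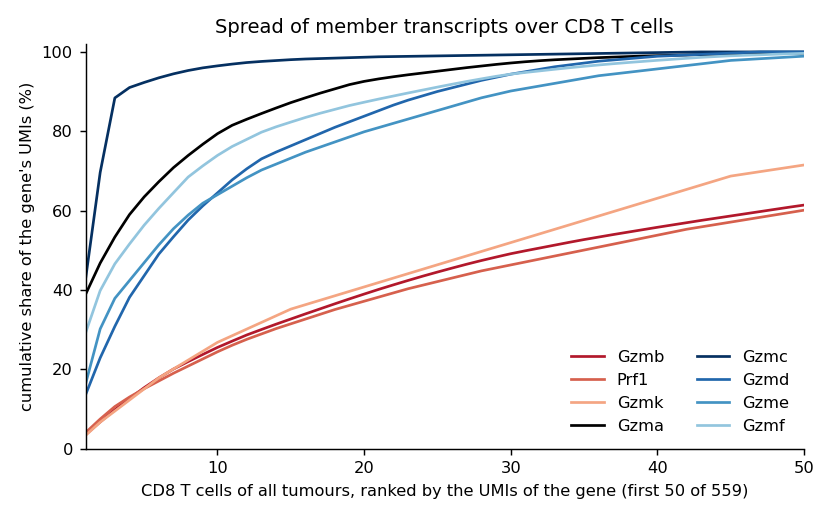
Cumulative share of each gene's UMIs (y axis, %) over CD8 T cells ranked by their UMIs of that gene (x axis, first 50 cells of the class, all tumours). Gzmc reaches 92.3% within 5 cells, whereas Gzmb, Prf1 and Gzmk rise slowly, with 15.4%, 15.1% and 15.1% in 5 cells.

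Some of the richest cells held no CD8 transcript. The CD8 class cell with the most Gzmf (1374 UMIs) and the most Gzmc (765 UMIs), from BD+ICB tumour 2, had 0 UMIs of Cd8a and Cd8b1 and 19 of Trdc, the constant chain of the γδ T cell receptor, among 32165 UMIs. The cell with the next most Gzmc (484 UMIs), from ICB tumour 1, had no UMI of Cd3d, Cd3e, Cd3g, Cd8a or Cd8b1. Over the class, 87.8% of cells held a Cd8a or Cd8b1 UMI, and all 7 T cell markers were detected above 20 CPM. Outside the 5 classes, a mesenchymal cell of ICB tumour 2 held 82 Gzme UMIs with 594 of the collagen gene Col1a1, and a proliferating cancer cell of BD+ICB tumour 1 with 280903 UMIs held 190 Gzmf UMIs. No doublet caller was run, and the part of doublets in these cells was not tested.

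Cluster genes were detected together. Of 47 CD8 T cells with Gzmd, 36 (76.6%) also held Gzme, against 3.71% of the cells without Gzmd, and 26 (55.3%) held Gzmf, against 6.45%. Of 59 cells with Gzmf, 89.8% held Gzmb and 74.6% held Prf1, against 49.8% and 34.0% of the cells without Gzmf. For Gzmk the shares depended on the partner. Of the cells with Gzmk, 8.91% held Gzmf, against 10.9% of those without, and 7.92% held Gzme, against 10.3%. Gzmd was in 9.90%, against 8.08%, Gzmc in 12.9%, against 6.55%, and Gzmg in 3.96%, against 0.218%. Gzmb was in 69.3%, against 50.7%, Gzma in 16.8%, against 8.73%, and Prf1 in 42.6%, against 37.3%. Cells with Gzmf had a median of 9046 UMIs, against 6056 in those without, and the part of depth in these shares was not tested. Whether reads were split between the alike copies was not tested either, so shares among Gzmc to Gzmg are taken as uncertain. At least 1 of Gzmc to Gzmg was found in 73 of 303 CD8 T cells from BD+ICB tumours (24.1%), 37 of 215 from ICB (17.2%), 1 of 10 from BD and 3 of 31 from SD. No member at all was found in 22.1% of CD8 T cells from BD+ICB, 34.9% from ICB, 30.0% from BD and 58.1% from SD tumours. These shares by group pool cells over tumours, so they hold no spread between tumours and were not tested. The BD and SD cells also came from the other library, and the part of depth was not tested.

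The butanediol diet under blockade was compared within 1 library, with UMIs summed per tumour and class and tested by edgeR's quasi-likelihood test. In CD8 T cells Gzmb was higher with the diet. It was at 1088, 1234 and 1400.2 CPM in BD+ICB tumours, against 759.9, 428 and 509.6 CPM in ICB tumours, which is 1241 ± 156 against 566 ± 173 CPM (SD, n = 3 each). Every BD+ICB tumour lay above every ICB tumour. The log2 fold change was 1.13 ± 0.22 (SE; edgeR adjusted p = 0.0231), and Gzmb was 1 of 5 genes called higher. Of the 8 members tested 1 was called, where 0.874% of 5375 genes were called in either direction and 0.0930% as higher. Gzmg, with 11 UMIs in BD+ICB and 17 in ICB, did not pass the filter on low counts.

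The groups also lay apart in the share of cells with Gzmb and in the level within such cells. A Gzmb UMI was found in 58.8% (Wilson 47.8 to 68.9), 60.0% (52.4 to 67.2) and 62.1% (49.2 to 73.4) of CD8 T cells of the BD+ICB tumours, against 50.0% (41.1 to 58.9), 45.1% (32.3 to 58.6) and 47.8% (34.1 to 61.9) in the ICB tumours. After thinning to 1000 UMIs the shares were 37.5%, 37.0% and 47.4% in BD+ICB, against 29.7%, 19.6% and 26.1% in ICB. In both readings the BD+ICB tumours lay above the ICB tumours. Among cells with a Gzmb UMI the median level was 1121, 1119 and 1225 CPM in BD+ICB, against 700.1, 546 and 329.8 CPM in ICB. With 3 tumours against 3, an exact permutation test of a single value cannot go below p = 0.1, so shares and levels per cell were not tested.

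**Figure D3:**
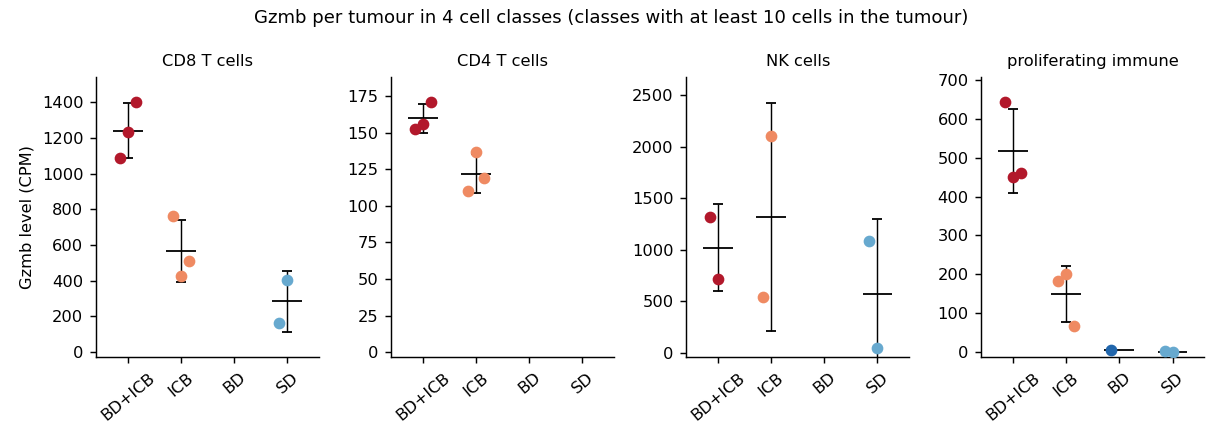
Gzmb level (y axis, CPM, linear) per tumour in 4 classes; points are tumours with at least 10 cells of the class, lines are means and bars are SD. In CD8 T cells the BD+ICB tumours lie between 1088 and 1400.2 and the ICB tumours between 428 and 759.9; groups with no point had no tumour with enough cells.

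No single cell carried this difference, but single tumours decided the call. Without the richest cell of each tumour, Gzmb was at 933, 1147 and 1127 CPM in BD+ICB, against 659.6, 367 and 385 CPM in ICB. Among cells with a Cd8a or Cd8b1 UMI, a restriction chosen after seeing the data, it was at 1153, 1267 and 1083 CPM in BD+ICB, against 817, 440.1 and 571 CPM in ICB, and the fold change was 0.94 ± 0.18 (edgeR adjusted p = 0.0280). The adjusted p in edgeR was 0.115 without BD+ICB tumour 2, 0.0616 without BD+ICB tumour 3, 0.0712 without ICB tumour 2 and 0.176 without ICB tumour 3, with log2 fold changes between 0.97 and 1.41 over all tumours left out in turn. Median depth of the CD8 T cells was 6274, 6728 and 5728 UMIs in BD+ICB, against 6398, 6573 and 4449.5 in ICB. All 6 macrophage markers were detected in the class, and their summed level was 54.1 to 105 CPM in BD+ICB and 97.9 to 288 CPM in ICB; their part in the result was not tested.

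Among the other members in CD8 T cells none passed the test for diet under blockade. Gzma was at 424, 540.3 and 522 CPM in BD+ICB tumours, against 231, 0 and 163 CPM in ICB tumours (log2 fold change 1.86 ± 0.89, edgeR adjusted p = 0.678). The groups did not overlap, and ICB tumour 2 had no Gzma UMI among 378235. Without this tumour Gzma was called, at 1.32 (edgeR adjusted p = 0.00449). The richest cell held 70.1%, 21.9% and 61.8% of the Gzma UMIs in the BD+ICB tumours, so the sums rest on few cells. Prf1 was at 132, 191 and 205 CPM in BD+ICB, against 232, 100.5 and 50.6 CPM in ICB, and the groups overlapped (0.33 ± 0.49, edgeR adjusted p = 0.922). It was called without ICB tumour 1, at 1.15 (edgeR adjusted p = 0.0332). Gzmk was at 27.0, 35.6 and 41.0 CPM in BD+ICB, against 44.7, 37.0 and 121 CPM in ICB (-0.79 ± 0.40, edgeR adjusted p = 0.621). Of all 9 members, Gzmb and Gzma lay higher without overlap and none lower, where 5.99% of genes with at least 10 UMIs lay higher without overlap and 8.05% lower.

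The cluster genes Gzmc, Gzmd, Gzme and Gzmf varied widely between tumours of a group, and the groups overlapped for each. Gzmf was at 355, 2106 and 1139 CPM in CD8 T cells of BD+ICB tumours, against 942, 574 and 3.89 CPM in ICB tumours. Gzmc was at 128, 682 and 15.4 CPM in BD+ICB, against 597, 47.6 and 7.78 CPM in ICB, and without the richest cell of each tumour at 52.0, 64.8 and 10.4, against 12.3, 16.4 and 3.99 CPM. Both high Gzmc values thus came from 1 cell each, the cells without Cd8 UMIs described above. Gzmd was at 231, 53.4 and 177 CPM in BD+ICB, against 347, 55.5 and 0 CPM in ICB, and Gzme at 122, 49.3 and 94.7, against 298, 15.9 and 27.2 CPM. The adjusted p in edgeR of these 4 genes was between 0.8775 and 0.9997.

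**Figure D4:**
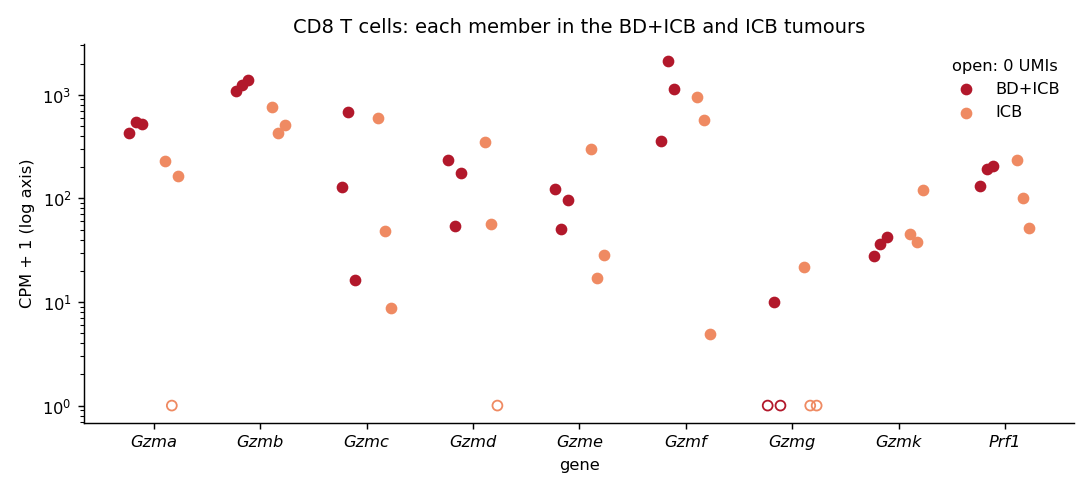
CPM + 1 (log axis) of each member in CD8 T cells; each point is 1 tumour of the BD+ICB or ICB group, and open points have 0 UMIs. The groups do not overlap for Gzmb and Gzma, whereas Gzmc and Gzmf span more than a factor of 5 within each group.

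In CD4 T cells 1 member, Gzmb, passed the filter. It was at 153, 155 and 171 CPM in BD+ICB tumours, against 110.1, 137 and 119 CPM in ICB tumours. The groups did not overlap (5.73% of genes lay higher without overlap and 6.94% lower), but the log2 fold change of 0.39 ± 0.26 was not called (edgeR adjusted p = 0.648; unadjusted p = 0.153), and its direction turned under a stricter hashtag rule, which kept cells whose top hashtag had at least 10 counts and 3 times those of the next (-0.083, edgeR adjusted p = 0.976). Neither edgeR nor DESeq2 called it, where edgeR called 0.910% of 2308 genes. Gzmk in these cells was at 55.1, 10.8 and 11.4 CPM in BD+ICB, against 104, 9.10 and 44.6 CPM in ICB. Of 185 Gzma UMIs in CD4 T cells, 142 were in 1 cell. Regulatory T cells could not be tested, since 1 tumour, BD tumour 1, reached 10 cells; their Gzmb was at 2327 CPM there and at 1032.5 CPM in the 8 cells of ICB tumour 1.

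In NK cells, 2 tumours per group had at least 10 cells, and BD had none. Gzma was at 3653 and 7613 CPM in BD+ICB tumours, against 3415 and 10689 CPM in ICB tumours (-0.26 ± 1.22, edgeR adjusted p = 0.996). Gzmb was at 1320.2 and 720.1 CPM in BD+ICB, against 539 and 2099.5 CPM in ICB (-0.29 ± 1.37, edgeR adjusted p = 0.996). The groups overlapped for both genes. Prf1 was at 479 and 412 CPM in BD+ICB, against 248 and 382 CPM in ICB (0.57 ± 0.31, edgeR adjusted p = 0.819). Of the 6 members tested none was called and none had an unadjusted p under 0.05, and DESeq2 called none, where edgeR called 0.327% of 1833 genes (0.0546% higher and 0.273% lower). Gzmd and Prf1 lay higher without overlap, where 15.7% of genes did (18.1% lower). Gzmd had 77 and 1 UMIs in the BD+ICB tumours and 0 in both ICB tumours, and the ICB tumour with 8 NK cells, outside the test, had 64.

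In proliferating immune cells the values of Gzmb, Gzma and Prf1 lay higher in every BD+ICB tumour than in any ICB tumour. Gzmb was at 642, 450.6 and 461 CPM in BD+ICB tumours, against 182, 201 and 67.1 CPM in ICB tumours (1.81 ± 0.35, edgeR unadjusted p = 2.28e-04, adjusted p = 0.156). Gzma was at 27.9, 62.9 and 152 CPM, against 15.2, 8.19 and 20.7 CPM (2.40 ± 0.61, edgeR adjusted p = 0.408). Prf1 was at 95.0, 122 and 32.0 CPM in BD+ICB, against 25.3, 12.3 and 31.0 CPM in ICB (1.78 ± 0.50, edgeR adjusted p = 0.425). None of 7 members tested was called by edgeR, 3 had an unadjusted p under 0.05, and DESeq2 called Gzmb (adjusted p = 0.0169). In edgeR 0.0% of 5481 genes were called, 515 had an unadjusted p under 0.05, and DESeq2 called 10. The 3 genes lay higher without overlap, where 6.28% of genes did (6.49% lower). With BD+ICB tumour 3 left out, edgeR called Gzmb at an adjusted p of 0.0337 and Prf1 at 0.0137.

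The make-up of this class, pooled over the tumours of a group, also differed between the groups. Of its 165 cells, 84.2% held a macrophage marker UMI, and the 7 T cell markers summed to 2570 CPM in BD+ICB, 848 in ICB, 723 in BD and 117 in SD, with none at 0 in any group. The 6 macrophage markers summed to 2244 CPM in BD+ICB, 5041.5 in ICB, 5673 in BD and 9404 in SD, again with none at 0. Cells with a Cd3d, Cd3e or Cd3g UMI were 9 of 10, 8 of 14 and 3 of 12 in the BD+ICB tumours, against 7 of 21, 3 of 12 and 5 of 18 in the ICB tumours. A Gzmb UMI was found in 22 of 41 cells with a CD3 UMI and in 2 of 124 without. Within the cells with a CD3 UMI, Gzmb was at 951 CPM in 20 BD+ICB cells, against 494 CPM in 15 ICB cells, pooled over tumours. The sums rest on few cells: the richest held between 63.5% and 68.2% of the Gzmb UMIs in each BD+ICB tumour, and in ICB tumour 2 all 49 were in 1 cell. Without the richest cell of each tumour Gzmb was at 258, 160.0 and 164 CPM in BD+ICB, against 64.4, 0 and 40.2 CPM in ICB. The part of the cell make-up in the difference was not tested beyond these values.

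**Figure D5:**
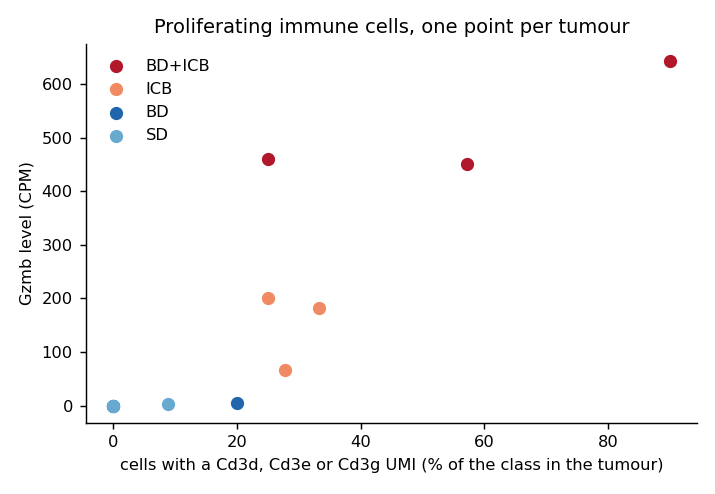
Gzmb level (y axis, CPM) of the proliferating immune cells against the share of them with a Cd3d, Cd3e or Cd3g UMI (x axis, %), 1 point per tumour, some resting on under 10 cells. The BD+ICB tumours lie between 450.6 and 642 CPM at CD3 shares of 25.0 to 90.0%, the ICB tumours between 67.1 and 201 CPM, and the BD and SD tumours at or below 5.09 CPM.

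Blockade on standard chow (ICB against SD) was compared across the libraries, and the ICB tumours here are the same as above. In CD8 T cells, SD tumours 1 and 3 entered with 11 and 12 cells, and 6 cells of each held a Cd8a or Cd8b1 UMI. Gzmb was at 759.9, 428 and 509.6 CPM in ICB tumours, against 163 and 407 CPM in SD tumours (1.01 ± 0.35, edgeR adjusted p = 0.210). Prf1 was at 232, 100.5 and 50.6 CPM in ICB, against 13.6 and 0 CPM in SD. No member of 8 was called by edgeR, 1 (Gzmb) had an unadjusted p under 0.05, and DESeq2 called Gzmf, where edgeR called 2.20% of 5375 genes (0.800% higher and 1.40% lower). Gzmb, Prf1, Gzme and Gzmf lay higher without overlap, where 32.3% of genes did (8.31% lower). Gzmd, Gzme and Gzmf had 0 UMIs in both SD tumours of the test, but SD tumour 2, with 8 cells, had 35, 16 and 236 UMIs of them, each in 1 cell. By counting error alone, each count of 0 allows up to 40.8 CPM in SD tumour 1 and 67.8 CPM in SD tumour 3. These bounds take each UMI as independent, although the UMIs of these genes lay in few cells. They are thus too low for the spread between cells. Without ICB tumour 2, edgeR called Gzma (adjusted p = 9.87e-04), which had 0 and 1 UMIs in the SD tumours.

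In NK cells under blockade on standard chow, Prf1 was at 248 and 382 CPM in ICB tumours, against 230.3 and 85.6 CPM in SD tumours (0.73 ± 0.36, edgeR unadjusted p = 0.0432, adjusted p = 0.331). None of 6 members was called by edgeR, 1 had an unadjusted p under 0.05, and DESeq2 called none, where edgeR called 5.35% of 1833 genes (0.927% higher and 4.42% lower). Gzmc was at 162 and 608 CPM in ICB, against 1032 and 2299 CPM in SD. Gzmc and Gzme lay lower without overlap, where 12.7% of genes did, and Prf1 higher, where 25.7% did. Gzma, at 3415 and 10689 CPM in ICB, against 3532 and 391 CPM in SD, overlapped.

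In proliferating immune cells Gzmb was higher in ICB than in SD tumours. It had 72, 49 and 26 UMIs in ICB tumours, against 1 and 0 UMIs in SD tumours, or 182, 201 and 67.1 CPM against 2.09 and 0 CPM. The ratio of the summed levels was 98.8 (95% exact interval 17.5 to 3929, counting error only). This interval takes each UMI as independent, although all 49 UMIs of ICB tumour 2 were in 1 cell, so it is too narrow for the spread between cells or tumours. The edgeR test called it (adjusted p = 0.0170), as 1 of 7 members tested and 1 of 2 genes among 5481 (0.0365%, with 0.0182% higher and 0.0182% lower). The adjusted p was above 0.05 without ICB tumour 1 (0.0752), SD tumour 1 (0.215), SD tumour 3 (0.188) or BD+ICB tumour 2 (0.0569). Prf1 had 25 UMIs in ICB, against 0 in SD, and Gzma had 16 against 0. With the SD sum set to 3 counts, the ratios were 5.60 for Prf1 and 3.58 for Gzma. They take the ICB counts as exact and each UMI as independent, so they are no lower bounds. Of the ICB cells with a CD3 UMI, 3 held 21 of the Prf1 UMIs and 3 held 12 of the Gzma UMIs. The T cell and macrophage marker sums given above for this class differ between ICB and SD as well. Over all tumours of each group, a CD3 UMI was found in 15 of 51 ICB cells and 3 of 53 SD cells. Gzmb, Gzma, Prf1 and Gzmc lay higher without overlap, where 12% of genes with at least 10 UMIs did (12.2% lower). Gzmd, which had under 10 UMIs in this comparison and so is outside that share, also lay higher without overlap, at 2.53 to 5.16 CPM in ICB, against 0 in SD.

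All 5 classes were also merged per tumour, which was the one way to bring BD tumours into a test. In such sums fewer cells of a type and less RNA per cell cannot be told apart: CD8 T cells were 303 of 479 merged cells in BD+ICB, 215 of 386 in ICB, 10 of 63 in BD and 31 of 136 in SD. Gzmb was at 861, 872 and 949.7 CPM in BD+ICB tumours, 538, 321 and 409 CPM in ICB, 535 and 74.7 CPM in BD (tumours 1 and 3), and 214, 159 and 140.4 CPM in SD. Gzmk was at 30.4, 26.5 and 21.8 CPM in BD+ICB, 35.3, 19.3 and 52.5 CPM in ICB, 51.3 and 0 CPM in BD, and 2.91, 8.82 and 6.38 CPM in SD. Prf1 was at 136, 157 and 136 CPM in BD+ICB, 157, 80.8 and 67.4 CPM in ICB, 173 and 0 CPM in BD, and 40.8, 52.9 and 19.1 CPM in SD. The BD values rest on tumour 1, where 1 CD8 T cell held 864 of the 983 Gzma UMIs and all but 3 of the 340 Gzmc UMIs.

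In edgeR no member was called in the merged comparisons of the main fit. This fit held the 4 groups, used the filter on low counts and took every tumour with at least 10 cells. BD tumour 2, with 5 cells, did not enter. For BD+ICB against ICB, Gzmb had a log2 fold change of 1.12 ± 0.52 (edgeR adjusted p = 0.594); 0 of 8 members were called, 0 had an unadjusted p under 0.05 and DESeq2 called 0, where edgeR called 0.0969% of 8253 genes, all of them lower. Gzmb lay higher without overlap, where 5.85% of genes did (8.75% lower). Fitted on the 2 groups alone, edgeR called it (adjusted p = 0.0183). For BD against SD, Gzmb had 0.90 ± 0.63 (edgeR adjusted p = 0.926) and Gzmk 2.74 ± 0.95 (0.906); edgeR called 0.0% of genes, 421 had an unadjusted p under 0.05, Gzmk among them, and DESeq2 called 0. With BD tumour 1 as the lone BD sample, assumed to vary like the other groups, edgeR called Gzmb (1.65, adjusted p = 0.0136). With BD tumour 3 as the lone sample the direction turned (-1.36, edgeR adjusted p = 0.436), as it did with class as a term in limma-voom (-2.14, adjusted p = 0.9996). For ICB against SD, Gzmk had 2.77 ± 0.75 (edgeR adjusted p = 0.0524) and Gzmb 1.24 ± 0.55 (0.246); 1 member, Gzmk, had an unadjusted p under 0.05 and DESeq2 called it (adjusted p = 0.0313), where edgeR called 4.63% of genes (2.52% higher and 2.11% lower). Gzmb, Gzmk and Prf1 lay higher without overlap in that comparison, where 15.1% of genes did (9.12% lower). Both Gzmk and Gzmb were called when ICB and SD were fitted alone (edgeR adjusted p = 0.00761 and 0.00418). For BD+ICB against BD, Gzmb had 1.46 ± 0.63 (edgeR adjusted p = 0.226) and Gzmk -0.34 ± 0.63 (0.809); 1 member, Gzmb, had an unadjusted p under 0.05 and DESeq2 called 0, where edgeR called 4.51% of genes (1.55% higher and 2.96% lower). Gzmb lay higher without overlap, where 23.4% of genes did (17.8% lower). Without BD tumour 1, which leaves tumour 3 as the lone BD sample, again assumed to vary like the other groups, edgeR called Gzmb (3.74, adjusted p = 5.80e-05) and Prf1. Without BD tumour 3 it did not call Gzmb (0.72, adjusted p = 0.264).

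Whether the diet acted differently with and without blockade was tested as the difference of the 2 diet effects in the merged sums. In the main fit edgeR called no member. Gzmb had a difference of 0.22 ± 0.82 log2 units (adjusted p = 0.9998) and Gzmk -3.12 ± 1.04 (unadjusted p = 0.0101, adjusted p = 0.951), and Gzmk was the 1 member with an unadjusted p under 0.05. In edgeR 0.0% of genes were called and 390 had an unadjusted p under 0.05. Without BD tumour 1 the Gzmb difference was 2.49 and was called (edgeR adjusted p = 0.0352). Without BD tumour 3 it was -0.53 (edgeR adjusted p = 0.928).

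The wider killing machinery was followed in 53 other genes for granule packing, protease activation, granule release, granzyme inhibition, death ligands, cytokines, transcription factors and cytokine receptors. In CD8 T cells, for BD+ICB against ICB, 44 were tested, 0 rose and 1 fell, where 0.0930% of all genes tested were called higher and 0.781% lower. Of the 44, 29 had a positive log2 fold change, with a median of 0.14 against -0.0016 over all genes. The gene that fell was Tnf, the death-inducing cytokine, at 49.0, 47.7 and 38.4 CPM in BD+ICB, against 94.2, 89.9 and 109 CPM in ICB (-1.06 ± 0.24, edgeR adjusted p = 0.0276). The Tnf call was lost without any 1 of the 6 tumours (edgeR adjusted p = 0.0533 to 0.162) and in DESeq2 (0.0855) and among cells with a Cd8a or Cd8b1 UMI (-0.81, edgeR adjusted p = 0.320), and under the stricter hashtag rule its direction turned (0.82, edgeR adjusted p = 0.547). Of the Tnf UMIs in CD8 T cells, the cells this rule dropped held 12 of 103 in BD+ICB (6 of 303 cells), against 109 of 140 in ICB (15 of 215 cells). The same cells held 106 of 2717 Gzmb UMIs in BD+ICB, against 177 of 922 in ICB. The 6 macrophage markers summed to 66.5 CPM in the dropped BD+ICB cells, against 510 CPM in the dropped ICB cells, and the part of doublets was not tested. In CD4 T cells 32 were tested, where 0.303% of all genes tested were called higher and 0.607% lower. The interleukin-2 receptor α chain Il2ra rose (2.01 ± 0.43, edgeR adjusted p = 0.0477) and the chemokine Ccl3 fell (-2.88 ± 0.43, edgeR adjusted p = 0.00506). In edgeR the Il2ra call was lost without BD+ICB tumour 1 or 2 or ICB tumour 1 or 3 (adjusted p = 0.0979 to 0.373), with RLE size factors (0.0549) and under the stricter hashtag rule (0.150), and in DESeq2 (0.0578). The Ccl3 call was lost in edgeR without BD+ICB tumour 2 (adjusted p = 0.0585) or ICB tumour 1 (0.0642). In NK cells 27 were tested under the same comparison, where 0.0546% of all genes tested were called higher and 0.273% lower. The chemokine Xcl1 rose, at 723 and 434 CPM in BD+ICB, against 189 and 298 CPM in ICB (1.32 ± 0.30, edgeR adjusted p = 0.00865). The call was lost without BD+ICB tumour 1 (edgeR adjusted p = 0.661) or ICB tumour 1 (0.525), with only the 2 groups fitted (0.0543), and in DESeq2, which called 0 genes there (1.000). None of 39 was called in proliferating immune cells, and the smallest unadjusted p in edgeR belonged to Il18rap (2.03, unadjusted p = 0.00347), Id2 (1.28, unadjusted p = 0.00866), Cst7 (1.24, unadjusted p = 0.0137) and Ctsw (1.96, unadjusted p = 0.0142).

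For ICB against SD in CD8 T cells, 5 of 44 genes rose and 0 fell, where 0.800% of all genes tested were called higher and 1.40% lower, with a median of 0.71 against 0.17 over all genes. They were Nkg7, a granule membrane protein needed for exocytosis, at 1761, 1843 and 1564 CPM in ICB, against 694 and 1242 CPM in SD (0.78 ± 0.20, edgeR adjusted p = 0.0311), the transcription factors Id2 (1.55), Bhlhe40 (1.63) and Zeb2 (2.58), and the cytokine Ltb (1.29). Without SD tumour 1 none of these 5 was called (edgeR adjusted p = 0.0687 to 0.505). In NK cells 27 were tested, where 0.927% of all genes tested were called higher and 4.42% lower. Xcl1 fell, at 189 and 298 CPM in ICB, against 1433 and 1137 CPM in SD (-2.60 ± 0.29, edgeR adjusted p = 5.45e-13). None of 39 was called in proliferating immune cells, and the smallest unadjusted p in edgeR belonged to Hopx (2.91, unadjusted p = 0.00281), Il2rb (4.30, unadjusted p = 0.00304), Cst7 (2.39, unadjusted p = 0.00598) and Bhlhe40 (1.38, unadjusted p = 0.00697). In the merged sums 6 of 47 rose, where 2.52% of all genes tested were called higher and 2.11% lower. They were the receptors Il18r1 and Il18rap, the death ligand Fasl, Rab27a, which docks granules at the membrane, and the transcription factors Bhlhe40 and Batf. Fasl was at 88.9, 55.4 and 84.5 CPM in ICB, against 23.3, 39.7 and 25.5 CPM in SD (1.44 ± 0.28, edgeR adjusted p = 0.0103). None of the 6 was called without SD tumour 1 (edgeR adjusted p = 0.0879 to 0.152), and 1, Bhlhe40, was called without the proliferating class and with class as a term in limma-voom. For BD+ICB against BD in the merged sums, 1.55% of all genes tested were called higher and 2.96% lower. Of the 47 listed genes tested, Il18r1, Il18rap, Fasl and Il12rb2 rose and the lysosomal membrane gene Lamp2 fell. Here Fasl was at 107, 101.5 and 83.3 CPM in BD+ICB, against 32.4 and 24.9 CPM in BD (1.72 ± 0.35, edgeR adjusted p = 0.0114). None of these 5 was called without BD tumour 3 (edgeR adjusted p = 0.0683 to 0.237) or with class as a term in limma-voom (adjusted p = 0.947 to 0.989).

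None of the 47 was called in the merged sums for either diet comparison. For BD+ICB against ICB the smallest unadjusted p in edgeR belonged to Ccl3 (-1.49, unadjusted p = 7.74e-04), Il18rap (0.79, unadjusted p = 0.00204), Id2 (0.71, unadjusted p = 0.00246) and Il12rb2 (1.03, unadjusted p = 0.00414). For BD against SD those in edgeR belonged to Batf (1.54, unadjusted p = 0.00845), Tcf7 (-0.98, unadjusted p = 0.0517), Vamp7 (0.89, unadjusted p = 0.0657) and Runx3 (-0.48, unadjusted p = 0.0751). For the difference of the diet effects those in edgeR belonged to Tcf7 (1.17, unadjusted p = 0.0419), Lamp2 (-0.86, unadjusted p = 0.0662), Vamp7 (-0.93, unadjusted p = 0.0928) and Batf (-0.92, unadjusted p = 0.129).

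Over 30 sums of 1 tumour and class each, and 5549 genes with a mean of at least 20 CPM, the genes whose log2(CPM + 1) went most with that of Gzmb were Il2rb, a receptor chain for interleukins 2 and 15 (Pearson r = 0.818), Grap (0.813), H2-Q7 (0.81), Nkg7 (0.809) and Cst7, an inhibitor of granule cathepsins (0.807). Those nearest to Gzmk were Eif4a2 (0.790), Nlrc5 (0.762), Akap13 (0.756), Crot (0.747) and Prkch (0.740). Those nearest to Prf1 were Esyt1 (0.772), Rnaset2b (0.753), Padi2, Klre1 and Gatad2a. The 9 members were left out of these rankings. Among the members themselves, Prf1 went with Gzma at r = 0.763, above all but Esyt1, and Gzmb went with Prf1 at r = 0.742, with Gzma at 0.581 and with Gzmk at 0.436. The sums share tumours, libraries and class differences, so these values describe likeness and carry no test.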

How the data were processed

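Droplet libraries come as UMI counts for each barcode, and the file headers of the deposited matrices name Cell Ranger 6.1.1. R 4.1 and the mm10 build are in the submitters' processing notes. Class and tumour of each cell, and its percent of mitochondrial UMIs, are the authors' values in the deposited cell table; how cells were clustered is not given in the sources used here. UMI counts were added up for every tumour with 10 or more cells of a class and fitted with edgeR 4.0.16 in R 4.3.3 (4 groups, TMM, filterByExpr, robust quasi-likelihood, Benjamini-Hochberg adjustment over all genes of the class, threshold 0.05). An SE is the fold change over the square root of F. Alternatives used DESeq2 1.42.0 and limma 3.58.1. The fits were tested on simulated data.

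The members and gene lists were chosen with earlier results of these data known. Named were all 9 members wherever tested, genes of the granule and killing list past the threshold (up to 10 per comparison) or, where none passed, 4 or fewer with the smallest p, and the 5 genes most like Gzmb, Gzmk and Prf1. Promoter windows are from RefSeq (GRCm38.p6), matched by symbol for all 9 members. Both libraries held 1931 barcodes in common. No pairing by replicate number was used.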

Additional observations from a re-analysis of the deposited data

Results flagged for a closer look

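Transcripts of all 9 members were also found in the 14 classes outside the 5, which no comparison used, and each count was above the 3 UMIs that a count of 0 allows. There were 312 UMIs of Gzma, 231 of Gzmb, 97 of Gzmc, 49 of Gzmd, 161 of Gzme, 212 of Gzmf, 22 of Gzmg, 9 of Gzmk and 75 of Prf1. Over 4685 cells these came to between 0.149 CPM for Gzmk and 5.18 CPM for Gzma. For Gzme, 79.5% of the UMIs of the table lay in the 5 classes, the lowest share after that of Gzmg (62.1%), and single mesenchymal cells with 82 and 51 Gzme UMIs, both from ICB tumours, account for much of the rest. A proliferating cancer cell of ICB tumour 3 held 91 Gzma UMIs among 121658. Gzmb was spread over 78 of these cells, the richest with 24 UMIs.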

How the results depend on the processing

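In all, 961 alternative values were computed. Of 199 values on whole comparisons (counts of members called and the share of cells with Gzmb), 164 stayed within 1.5 times the reported value and 35 moved; of the other values 621 kept direction and side of the threshold, 95 lost a call, 29 gained one, 14 turned direction and 3 moved. Unless a cause is named, the cause was not tested. In CD8 T cells Gzmb for BD+ICB against ICB was called under each alternative that left out no tumour, and leaving out a tumour gave 0 to 2 members called there and 0 to 1 for ICB against SD. DESeq2 called 1 member for ICB against SD in CD8 T cells (Gzmf, at 0 in both SD tumours), 1 in the merged ICB against SD (Gzmk) and 1 in proliferating immune cells for BD+ICB against ICB (Gzmb). With no filter on low counts edgeR called 1 member in CD8 T cells for ICB against SD (Gzmb), 3 in proliferating immune cells for each comparison (Gzma, Gzmb and Prf1), 1 in the merged BD against SD (Gzmk), 1 in the merged ICB against SD (Gzmk) and 1 in the difference of the diet effects (Gzmk, -3.09). With at least 30 cells per tumour, and with only the groups compared, it called 1 in the merged BD+ICB against ICB (Gzmb) and 2 in the merged ICB against SD (Gzmb and Gzmk). Leaving out 1 tumour at a time gave 0 to 1 members called in both NK comparisons, 0 to 2 and 0 to 1 in proliferating immune cells, 0 in CD4 T cells, and in the merged sums 0 to 1 for BD against SD, 0 to 2 for BD+ICB against BD, 0 to 1 for BD+ICB against ICB, 0 to 2 for ICB against SD and 0 to 1 for the difference.

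Directions turned for Gzmb in CD4 T cells under the stricter hashtag rule (-0.083) and for Gzmb in the merged BD against SD with class as a term in limma-voom (-2.14). The direction of Tnf in CD8 T cells turned under the stricter hashtag rule (0.82), which drops 15 ICB cells with 109 of the 140 Tnf UMIs of that group. For BD+ICB against ICB, NK Gzma and NK Gzmb turned with the replicate block, from -0.26 to 1.27 and from -0.29 to 1.86. With 1 tumour left out, NK Gzma ranged between -0.84 and 0.75 and NK Gzmb between -0.95 and 0.94. In the merged sums, Gzmb ranged between -1.36 and 1.65 for BD against SD and between -0.53 and 2.49 for the difference. Gzmk ranged between -5.17 and 3.37 for BD against SD, -0.97 and 7.58 for BD+ICB against BD and -3.75 and 4.80 for the difference, where BD tumour 3 alone has 0 Gzmk UMIs, so the ends reached without BD tumour 1 depend on the prior count and are no folds. With the replicate block, the edgeR adjusted p of Gzmb in CD8 T cells was 5.51e-04, NK Gzma was 1.27, NK Gzmb was 1.86 and 1 NK member was called (Gzmf). That call rests on few cells, since 1 NK cell of BD+ICB tumour 1 held 88 of the 101 Gzmf UMIs of the class. The other BD+ICB tumour in the test was at 0 CPM. The block changed no other member call. The numbers share no stated mouse or day, and same-numbered tumours correlated between -0.147 and 0.284 in 15 pairs. The mean share of CD8 T cells with Gzmb was 12.6 points higher in BD+ICB than in ICB, and 15.5 points after thinning. By rank correlation 1, 2 and 3 of the 5 genes most like Gzmb, Gzmk and Prf1 stayed.

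Counts of all genes called moved with the settings. For BD+ICB against ICB in CD8 T cells 47 genes were called, 127 with no filter, 78 with the replicate block, 24 among cells with a Cd8 UMI and 4 under the stricter hashtag rule. For the same comparison the count was 21 in CD4 T cells (4 with 1 tumour left out to 71 with no filter), 6 in NK cells (0 in DESeq2 to 18 with the replicate block), 0 in proliferating immune cells (129 with no filter) and 8 in the merged sums (1 under the stricter hashtag rule to 264 with no filter). For ICB against SD it was 98 in NK cells (21 with the replicate block), 2 in proliferating immune cells (0 with 1 tumour left out to 81 with no filter), 118 in CD8 T cells (8 without SD tumour 1) and 382 in the merged sums (32 with 1 tumour left out to 859 with no filter). In the merged sums it was 372 for BD+ICB against BD (2 with class as a term to 885 with no filter), 0 for BD against SD (16 with no filter) and 0 for the difference (36 with no filter). Too few cells or tumours were left for at least 30 cells per tumour in CD4 T cells, NK cells, proliferating immune cells, the BD comparisons and CD8 ICB against SD, for the stricter hashtag rule and the Cd8 restriction in CD8 ICB against SD, and for the merge of 4 classes in the BD comparisons; DESeq2, class as a term and the fit on the groups alone were not run for the difference. SD tumours held 8 to 12 CD8 T cells and BD tumours at most 9, so their values rest on few cells.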
